A study of Mus musculus with 24 samples.

Results

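The proteasome genes of mouse brown fat are described here in 4 groups of mice, taken as every gene of the table whose symbol names a proteasome subunit, activator, inhibitor or assembly chaperone of the Psma to Psmg series followed by a digit. This rule found 47 of the 12615 genes, namely 7 alpha and 4 noncatalytic beta subunits of the 20S core, the 3 constitutive and 3 immunoproteasome catalytic subunits, 6 ATPases and 11 non-ATPases of the 19S cap, 6 activator or inhibitor genes and 7 assembly chaperones. All 47 passed the filter on low counts. Psma8 (a germ cell alpha subunit), Psmb11 (the thymus catalytic subunit) and Psmc3ip, a recombination factor that only shares the name, had no row. Brown fat RNA from 24 mice, 6 in each group, had been sequenced from tags at the 3′ ends of transcripts. All mice carried floxed alleles of TBLR1 and TBL1, 2 corepressor subunits encoded by Tbl1xr1 and Tbl1x, and were given tamoxifen. The groups labelled BATdKO also carried Ucp1CreERT2, a tamoxifen-activated Cre driven by the promoter of the brown adipocyte gene Ucp1, so other cells of the tissue keep both genes, and the groups labelled Cre- lacked it. After being raised at 22°C, mice of each genotype were kept either at 30°C for 4 days or, after stepwise cooling, at 8°C for 6 days, starting 3 weeks after tamoxifen. The labels call the mice female and put tamoxifen at 5 years of age. The study's own text differs from these labels on the days in the cold, the sex, the age and the number of mice sequenced per group, and it describes a removal of outliers, whereas all 24 deposited libraries were used here unless stated.

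The proteasome degrades proteins tagged with ubiquitin. Its 20S core is a barrel of alpha rings, which gate the entrance, and beta rings, which hold the proteolytic sites of Psmb5, Psmb6 and Psmb7. Interferon replaces these by Psmb8, Psmb9 and Psmb10 in the immunoproteasome, which is abundant in immune cells. The 19S cap recognises and unfolds substrates with a ring of Psmc ATPases and the Psmd subunits around it. In brown fat, cold is known to raise proteasome activity through NFE2L1, a membrane-bound transcription factor of proteasome genes, and the comparisons below ask how the mRNAs of each part of the complex stood in the cold and under each genotype label.

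Total counts ran from 2738613 to 11527643 per library apart from 1 shallow library of 699703 counts (Cre- 30°C, mouse 4), and the 47 members together held 2007 to 35705 counts per library. Levels are given in CPM, the counts scaled to library sizes adjusted by edgeR's TMM method, and are compared between mice and not between genes. The mRNAs of both targeted genes went against the genotype labels. Tbl1xr1 had median levels of 21.7 CPM (Cre-, 30°C), 34.5 CPM (BATdKO, 30°C), 21.0 CPM (Cre-, 8°C) and 39.5 CPM (BATdKO, 8°C), and at 8°C it was higher in the libraries labelled BATdKO by a log2 fold change of 0.92 (SE 0.17, adjusted p = 0.00348). Tbl1x was also higher there, by 0.39 (SE 0.10, adjusted p = 0.0633). Where the 3′ tags lie relative to the deleted exons is not given in the sources used here, and tags outside them would not check the deletion. Groups are therefore named as labelled throughout. The libraries numbered 6 in the 2 groups at 30°C, which come from different mice, stood apart. Tbl1xr1 was at 38.6 CPM in Cre- mouse 6 against 16.4 to 24.6 CPM in the other 5, and at 17.0 CPM in BATdKO mouse 6 against 29.8 to 42.0 CPM in the other 5. Ucp1, the uncoupling protein of brown adipocytes, was at 547.9 CPM and 84.7 CPM in the same 2 libraries. The library numbers of the 30°C and the 8°C libraries form separate blocks. What the blocks stand for is not given in the sources used here, and any difference between them cannot be told apart from temperature.

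Hepatocyte markers were high in all 24 libraries labelled brown fat. All 10 of 10 listed markers were detected in every library, with summed levels of 34146 to 47496 CPM (Cre-, 30°C), 36796 to 43949.7 CPM (Cre-, 8°C), 32852 to 42102 CPM (BATdKO, 30°C) and 37545 to 48294 CPM (BATdKO, 8°C). Alb, the serum albumin gene of hepatocytes, ran from 5686 to 14393 CPM, while Ucp1 ran from 28.9 to 547.9 CPM at 30°C and from 968 to 2076 CPM at 8°C. None of the 10 passed the threshold in any comparison (edgeR's quasi-likelihood test, with 4 at an unadjusted p under 0.05 for cold in BATdKO and 0 in the other comparisons, and 0 by DESeq2). Which cells the proteasome counts came from was not tested, and fewer cells of a type and less RNA per cell cannot be told apart in bulk tissue.

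**Figure D1:**
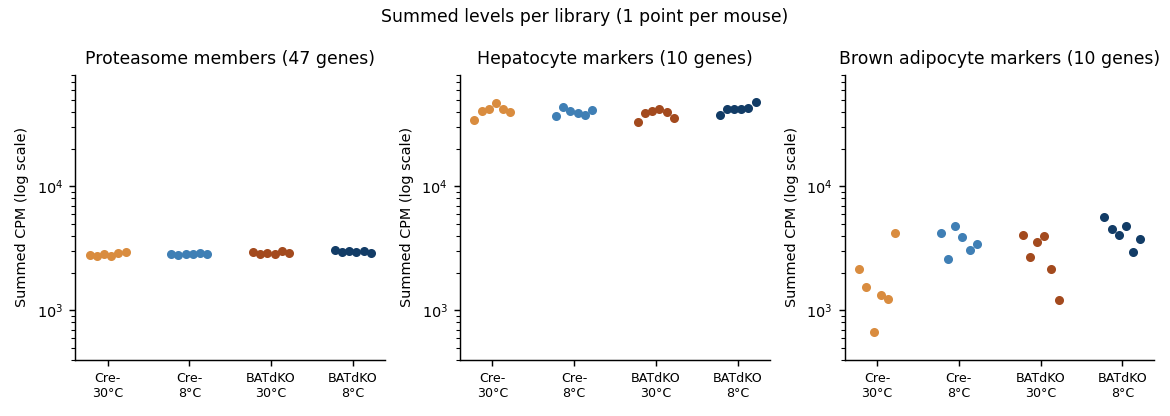
Summed CPM per library on a log scale for the 47 proteasome members, 10 hepatocyte markers and 10 brown adipocyte markers, with 1 point for each of 6 mice per group. After TMM scaling the proteasome sums stayed between 2743 and 3043 CPM in all 24 libraries, while the brown adipocyte sums ran from 665 to 5710 CPM.

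The summed level of the 47 proteasome genes was 2846 ± 96.1 CPM (SD, n = 6) in Cre- at 30°C, 2839 ± 35.6 CPM in Cre- at 8°C, 2914 ± 72.7 CPM in BATdKO at 30°C and 2990.5 ± 46.3 CPM in BATdKO at 8°C. At 8°C every BATdKO sum (2916 to 3043 CPM) was above every Cre- sum (2781 to 2887 CPM) after TMM scaling. Of the members, 34 of 47 had positive log2 fold changes by genotype label. In that comparison the median over all genes was -6.1e-05. The 10 hepatocyte markers were all positive too, with a median of 0.09 against 0.05 for the members. Whether other sets of 47 genes separate the groups in this way was not tested. As a plain share of all counts, without TMM, the members at 8°C held 0.255% to 0.291% in BATdKO and 0.263% to 0.286% in Cre-, which overlapped. At 30°C the sums of the 2 labels overlapped (2743 to 2981 CPM in Cre- and 2844 to 3036 CPM in BATdKO), with 24 of 47 positive. After TMM scaling the sums at 30°C and 8°C overlapped under each label. By plain share every Cre- library at 30°C (0.287% to 0.325%) was above every Cre- library at 8°C. In BATdKO the plain share was 0.2906% to 0.3232% at 30°C against 0.2550% to 0.2910% at 8°C. Which scaling describes the tissue better was not tested. Single members were called at an adjusted p under 0.1 by edgeR's quasi-likelihood test with Benjamini-Hochberg adjustment over all 12485 genes tested. Cold called 2 of 47 members in Cre-, Psme4 higher and Psmb10 lower, where 9.15% of all genes were called. Cold called 2 of 47 in BATdKO, Psmb3 and Psmb5, both higher, where 7.07% of all genes were called. The genotype label called 1 of 47 at 8°C, Psma1, higher in BATdKO, where 1.82% of all genes were called. At 30°C it called 0 of 47 and 0% of all genes, with 5 members at an unadjusted p under 0.05, and DESeq2 called 0 members and 90 genes. The interaction of genotype label and temperature called 0 of 47 members, with 1 at an unadjusted p under 0.05 and 0 by DESeq2, where 0.0961% of all genes were called. An unadjusted p under 0.05 by edgeR was found for 18.6% of all genes for cold in Cre- and 17.2% for cold in BATdKO. By genotype label it was found for 9.24% at 8°C and 10.4% at 30°C, and in the interaction for 8.05%.

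Median log2 fold changes of the 47 members were -0.01 for cold in Cre- (all genes -0.02), 0.08 for cold in BATdKO (all genes -0.00), 0.05 for the genotype label at 8°C (all genes -0.00) and 0.02 at 30°C (all genes -0.01). The 95% interval of the fold change lay within 1.5-fold in either direction for 38 of 47 members for cold in Cre-, 38 for cold in BATdKO, 40 for the label at 8°C and 40 at 30°C. Larger changes of those members are outside their intervals, and the remaining members, mainly those with low counts such as Psma5, Psmb7, Psmb9 and Psmg1, were measured less precisely. The median coefficient of variation between mice was 13.9% (Cre-, 30°C), 8.56% (Cre-, 8°C), 14.3% (BATdKO, 30°C) and 11.1% (BATdKO, 8°C), where that of all genes was 21.2%, 15.2%, 18.5% and 17.0%. The members and all genes were not matched for level here. Members with low counts reached 60.8% (Psmg1, Cre- at 30°C) and 53.6% (Psmb9, BATdKO at 8°C).

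**Figure D2:**
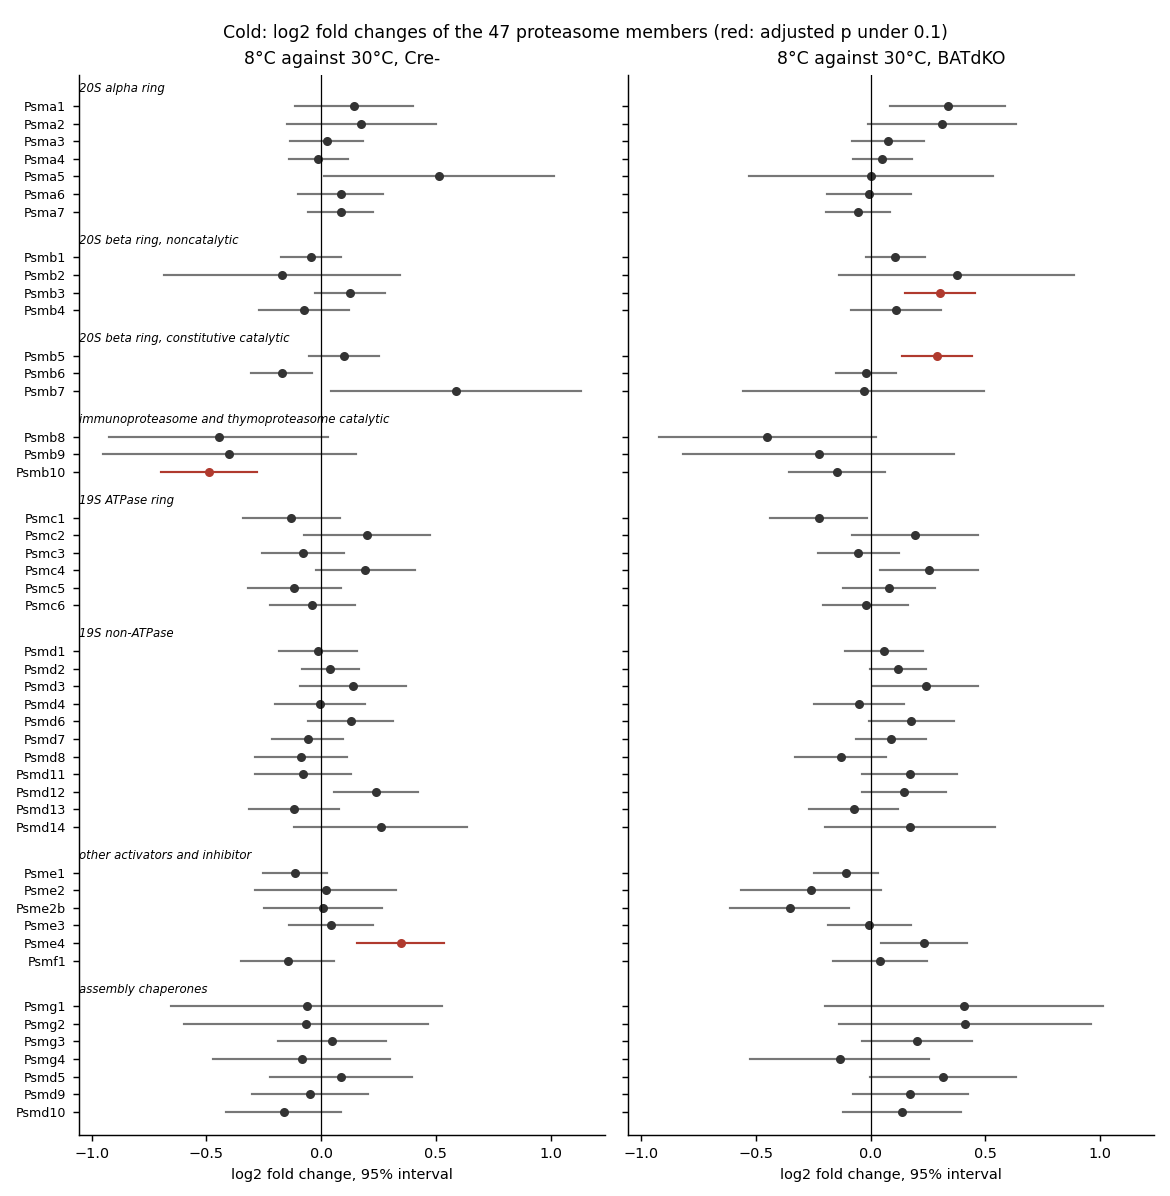
Log2 fold changes of 8°C against 30°C with 95% intervals for the 47 members by class, in the libraries labelled Cre- (left) and BATdKO (right), with called members in red. Psmb10 lies at -0.49 and Psme4 at 0.35 on the left, and Psmb3 lies at 0.30 and Psmb5 at 0.29 on the right.

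The promoters of the 5 called members are printed so that the upstream sequences of genes called in different comparisons can be read side by side. Each is the RefSeq window (GRCm38.p6) from 250 bases before to 50 bases after the start site, 5′ to 3′ on the gene's strand. The windows are chr7:114276067-114276366 on the minus strand for Psma1, chr11:97703184-97703483 on the plus strand for Psmb3, chr14:54617946-54618245 on the minus strand for Psmb5, chr8:105938343-105938642 on the minus strand for Psmb10 and chr11:30771525-30771824 on the plus strand for Psme4. Capitals mark any match, on either strand, to 3 letter patterns, which do not overlap each other here: the antioxidant response element core TGACNNNGC, to which NFE2L1 and its relatives are known to bind, the CCAAT box and the interferon response element core GAAANNGAAA.
Psma1: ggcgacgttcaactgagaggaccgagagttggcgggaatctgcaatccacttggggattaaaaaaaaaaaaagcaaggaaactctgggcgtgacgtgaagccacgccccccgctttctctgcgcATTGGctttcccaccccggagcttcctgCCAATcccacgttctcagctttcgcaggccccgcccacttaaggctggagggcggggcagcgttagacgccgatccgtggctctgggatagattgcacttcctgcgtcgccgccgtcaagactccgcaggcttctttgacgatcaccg
Psmb3: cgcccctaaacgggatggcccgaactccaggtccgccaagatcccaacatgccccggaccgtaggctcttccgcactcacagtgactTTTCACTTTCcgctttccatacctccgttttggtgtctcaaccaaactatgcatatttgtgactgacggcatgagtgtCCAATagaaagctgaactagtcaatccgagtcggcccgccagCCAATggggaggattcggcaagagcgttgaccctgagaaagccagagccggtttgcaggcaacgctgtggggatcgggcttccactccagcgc
Psmb5: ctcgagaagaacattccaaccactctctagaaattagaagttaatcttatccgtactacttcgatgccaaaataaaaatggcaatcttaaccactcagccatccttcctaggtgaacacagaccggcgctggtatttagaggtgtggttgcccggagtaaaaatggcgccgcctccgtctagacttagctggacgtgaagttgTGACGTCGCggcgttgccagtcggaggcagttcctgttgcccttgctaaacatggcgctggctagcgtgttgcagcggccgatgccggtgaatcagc
Psmb10: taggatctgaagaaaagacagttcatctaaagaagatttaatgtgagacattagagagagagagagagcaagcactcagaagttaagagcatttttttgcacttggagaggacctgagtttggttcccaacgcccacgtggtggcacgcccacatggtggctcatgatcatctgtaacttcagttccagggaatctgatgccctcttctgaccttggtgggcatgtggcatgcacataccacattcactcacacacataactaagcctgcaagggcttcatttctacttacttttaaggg
Psme4: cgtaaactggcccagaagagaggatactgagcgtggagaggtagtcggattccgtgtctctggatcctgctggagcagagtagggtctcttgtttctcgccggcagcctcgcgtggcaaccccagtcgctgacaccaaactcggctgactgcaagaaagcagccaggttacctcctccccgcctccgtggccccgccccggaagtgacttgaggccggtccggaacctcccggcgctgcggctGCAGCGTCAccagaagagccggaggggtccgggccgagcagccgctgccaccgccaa
Psmb5 held the antioxidant core starting 47 bases before the start site, and Psme4 held it on the opposite strand starting 7 bases before it. Psma1 and Psmb3 held 2 CCAAT boxes each, Psmb3 also held the interferon core on the opposite strand, and Psmb10 held none of the 3 patterns. A window was found for 40 of the 47 members. The antioxidant core was in 6 of these 40 (15%) against 14% of the 27025 genes with a window, the CCAAT box in 13 (32.5%) against 41.1%, and the interferon core in 5 (12.5%) against 3.99%. The 6 with the antioxidant core were Psmb5, Psmb6, Psmc6, Psmd9, Psmd12 and Psme4. The 5 with the interferon core were Psmb3, Psmd4, Psmd9, Psme1 and Psmg4, while the windows of the immunoproteasome genes Psmb8, Psmb9 and Psmb10 did not hold it. A match is a description of the letters and not a binding site, and no match says only that these letters are not in the window.

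Among the 7 alpha subunits, which form the outer rings of the core, Psma1 (chr7:114264606-114276118, minus strand, GRCm38) was the called member. At 30°C it ranged from 30.6 to 54.8 CPM with a median of 31.8 in Cre- and from 35.1 to 49.7 CPM with a median of 44.6 in BATdKO. At 8°C it ranged from 35.7 to 42.8 CPM with a median of 40.1 in Cre- and from 50.1 to 68.0 CPM with a median of 52.7 in BATdKO. All 6 BATdKO libraries at 8°C were thus above all 6 Cre- libraries, with a log2 fold change of 0.45 (SE 0.12, adjusted p = 0.0696, edgeR). At 30°C the groups overlapped, through mouse 6 of each and BATdKO mouse 5 at 35.1 CPM, and the log2 fold change was 0.26 (SE 0.12, adjusted p = 0.461). The Cre- library of mouse 6 was at 54.8 CPM, against 30.6 to 35.5 CPM in the other 5, and the BATdKO library of mouse 6 was at 36.5 CPM. Without these 2 libraries, the 30°C difference was 0.49 with an adjusted p of 0.00431 and the 8°C difference 0.45 with an adjusted p of 0.00232, in an alternative chosen after seeing the data. Cold gave Psma1 a log2 fold change of 0.34 in BATdKO (SE 0.12, adjusted p = 0.125), with all 6 libraries at 8°C above all 6 at 30°C, and 0.14 in Cre- (SE 0.12, adjusted p = 0.597). The call at 8°C was lost in 9 of the 24 fits that leave out 1 library, with the highest adjusted p, 0.167, without BATdKO mouse 1 at 8°C. Skeletal muscle markers also tended lower under the BATdKO label, with a wide spread between libraries. Of 14 markers, 14 had negative log2 fold changes for BATdKO against Cre- at each temperature, with 0 called by edgeR and 12 at an unadjusted p under 0.05. Of all genes, 9.24% at 8°C and 10.4% at 30°C had such a p by edgeR. DESeq2 called 1 of the 14, Myh7, by label at 8°C, where it called 2.29% of all genes, and 0 at 30°C. The summed level of the 14 markers at 8°C ran from 4.22 to 1601 CPM in Cre- and from 2.93 to 160.1 CPM in BATdKO. At 30°C it ran from 4.10 to 8891 CPM (median 239) in Cre- and from 21.4 to 671 CPM (median 209) in BATdKO. For cold all 14 were also negative under each label. Of these markers edgeR called 2 lower in Cre-, where 9.15% of all genes were called, and 0 in BATdKO, and DESeq2 called 0 under either label. Their part in the level of Psma1 was not tested.

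The other alpha subunits were not called by edgeR with all 24 libraries. Psma6 had medians of 58.6 CPM in Cre- and 72.9 CPM in BATdKO at 30°C and of 61.3 and 70.1 CPM at 8°C. Its log2 fold change by genotype label was 0.29 at 30°C (SE 0.09, adjusted p = 0.218) and 0.20 at 8°C (SE 0.09, adjusted p = 0.458), and the groups overlapped at both temperatures. Without both libraries numbered 6 at 30°C, Psma6 was called there beside Psma1. Psma5, with as few as 3 counts in a library, had 4.47 CPM at 30°C and 6.88 CPM at 8°C in Cre- (medians), a log2 fold change of 0.51 with an SE of 0.24 and an adjusted p of 0.249. Its interaction was -0.51 (SE 0.35, adjusted p = 0.739). Over the 7 members, medians of the log2 fold change were 0.09 for cold in Cre- and 0.05 for cold in BATdKO.

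The noncatalytic beta subunits build the inner rings together with the proteolytic subunits. Psmb3 (chr11:97703399-97713500, plus strand) ranged from 46.9 to 60.7 CPM (median 57.8) at 30°C and from 63.6 to 75.4 CPM (median 69.1) at 8°C in BATdKO. Every 8°C library was above every 30°C library, and Psmb3 rose by a log2 fold change of 0.30 (SE 0.07, adjusted p = 0.0155). In Cre- it ranged from 56.0 to 69.5 CPM (median 62.0) at 30°C and from 59.4 to 74.5 CPM (median 69.2) at 8°C, where the groups overlapped and the log2 fold change was 0.13 (SE 0.07, adjusted p = 0.386). The difference between these changes, 0.18, did not pass the test of the interaction (SE 0.10, adjusted p = 0.686). Psmb1 had a log2 fold change of 0.14 by genotype label at 8°C (SE 0.06, adjusted p = 0.485), and Psmb3 had -0.16 by label at 30°C (SE 0.07, adjusted p = 0.448).

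Of the constitutive catalytic subunits, Psmb5, the chymotrypsin-like site, rose in the cold in BATdKO. Psmb5 (chr14:54614119-54618022, minus strand) ranged from 84.9 to 94.9 CPM (median 87.4) at 30°C and from 102 to 119 CPM (median 109) at 8°C in BATdKO, without overlap, a log2 fold change of 0.29 (SE 0.07, adjusted p = 0.0198). In Cre- it ranged from 60.1 to 95.6 CPM (median 88.6) at 30°C, the lowest value being the shallow library with 44 counts, and from 86.3 to 98 CPM (median 93.1) at 8°C. That log2 fold change was 0.10 (SE 0.07, adjusted p = 0.509), and the interaction was 0.19 (SE 0.10, adjusted p = 0.659). At 8°C all 6 BATdKO libraries lay above all 6 Cre- libraries, with a log2 fold change of 0.23 (SE 0.07) that missed the threshold (adjusted p = 0.156) and passed it with DESeq2 and with the 12 libraries at 8°C fitted alone. Psmb5 shares exon sequence with the microRNA gene Mir686 on its strand.

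Psmb6, the caspase-like site, and Psmb7, the trypsin-like site, were not called by edgeR with all 24 libraries. Both were called for cold in Cre- without the libraries numbered 6 at 30°C. Psmb6 had medians of 94.4 CPM at 30°C and 84.8 CPM at 8°C in Cre- (log2 fold change -0.17, SE 0.06, adjusted p = 0.121) and of 93.6 and 90.9 CPM in BATdKO (-0.02, SE 0.06, adjusted p = 0.943). Psmb7 had few counts, 6 to 77 per library, and ranged from 2.05 to 8.20 CPM in Cre- at 30°C. Its log2 fold change was 0.59 for cold in Cre- (SE 0.26, adjusted p = 0.220) and -0.03 for cold in BATdKO (SE 0.26, adjusted p = 0.991), and its exons overlap Nek6 on the other strand. By genotype label at 30°C it was 0.65 (SE 0.26, adjusted p = 0.371). Summed over the 3 genes, the level was 181 ± 6.04 CPM in Cre- and 206 ± 4.63 CPM in BATdKO at 8°C (SD, n = 6), against 183 ± 10.9 and 188 ± 8.39 CPM at 30°C.

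The immunoproteasome subunits had lower mean levels at 8°C than at 30°C under both labels, and Psmb10 in Cre- was the call among them. Psmb10 (chr8:105935735-105938444, minus strand), which takes the place of Psmb7, ranged from 19.5 to 29.9 CPM (median 25.5) at 30°C and from 14.8 to 20.9 CPM (median 18.2) at 8°C in Cre-. Only mouse 2 at 30°C lay within the range of the cold libraries, and Psmb10 fell by 0.49 on the log2 scale (SE 0.10, adjusted p = 0.0027). In BATdKO it ranged from 19.0 to 24.4 CPM (median 22.7) at 30°C and from 17.0 to 22.7 CPM (median 20.2) at 8°C, a log2 fold change of -0.15 (SE 0.10, adjusted p = 0.503). The interaction for Psmb10 was 0.34 (SE 0.14, unadjusted p = 0.0244, adjusted p = 0.542, edgeR), so the 2 cold responses were not shown to differ. By genotype label Psmb10 had 0.16 at 8°C (SE 0.10, adjusted p = 0.710) and -0.18 at 30°C (SE 0.10, adjusted p = 0.560).

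Psmb8, which takes the place of Psmb5, ranged from 8.42 to 23.0 CPM (median 11.6) at 30°C and from 9.98 to 12.5 CPM (median 10.5) at 8°C in Cre-, a log2 fold change of -0.45 with an SE of 0.23 and an adjusted p of 0.309. In BATdKO it ranged from 8.11 to 24.4 CPM (median 19.3) and from 8.48 to 16.2 CPM (median 13.2), also -0.45, with an SE of 0.23 and an adjusted p of 0.322. The spread at 30°C was thus wide, and BATdKO mouse 6 was the lowest library of its group. Psmb8 was called for cold in BATdKO without both libraries numbered 6 at 30°C. Psmb9, which takes the place of Psmb6, had medians of 5.44 and 4.36 CPM in Cre- (log2 fold change -0.40, SE 0.27, adjusted p = 0.459) and of 4.67 and 3.89 CPM in BATdKO (-0.23, SE 0.29, adjusted p = 0.755). Its exons overlap Tap1 on the other strand, those of Psmb8 overlap Gm20496, and whether reads were counted by strand is not given in the sources used here.

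The share of the catalytic CPM that came from Psmb8, Psmb9 and Psmb10 was 19.7% ± 3.41 in Cre- and 19.1% ± 2.37 in BATdKO at 30°C (SD, n = 6), and 15.6% ± 1.32 and 15.1% ± 1.08 at 8°C. This share adds CPM over genes whose levels are not compared with each other, so it compares libraries and does not give the fraction of immunoproteasomes. Its ranges at 30°C and 8°C overlapped under both labels, from 15.7% to 25.4% against 13.9% to 17.5% in Cre- and from 15.2% to 21.7% against 13.9% to 16.8% in BATdKO. Leukocyte markers stood lower at 8°C beside it. Of the 14 leukocyte markers in the table, 14 had negative log2 fold changes for cold in Cre-, of which 2 passed the threshold (Cd74, -0.48, adjusted p = 0.0448, and H2-Eb1, -0.40, adjusted p = 0.0661), where 9.15% of all genes were called. For cold in BATdKO 13 had negative log2 fold changes, of which 3 passed (Cd74, -0.44, adjusted p = 0.0828, H2-Ab1, -0.57, adjusted p = 0.0398, and H2-Eb1, -0.48, adjusted p = 0.0319), where 7.07% of all genes were called. Cd74, H2-Ab1 and H2-Eb1 encode the invariant chain and MHC class II chains of antigen-presenting cells. The summed level of the list ran from 302 to 456 CPM at 30°C and from 277 to 431 CPM at 8°C in Cre-, and from 376 to 484 CPM and from 314 to 354 CPM in BATdKO. Among these markers only Itgam was at 0, and only in the shallow library, while Cd3e and Cd79a, which mark T and B cells, had no row. Their part in the level of Psmb10 was not tested.

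**Figure D3:**
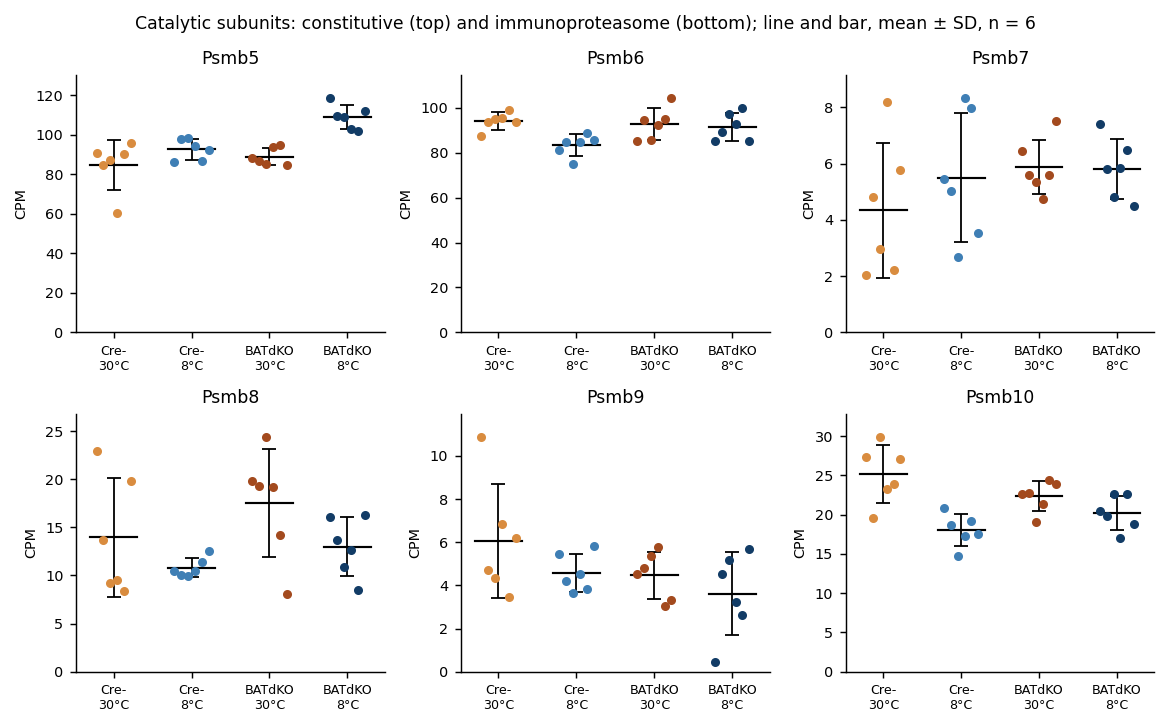
CPM of the constitutive (Psmb5, Psmb6, Psmb7) and immunoproteasome (Psmb8, Psmb9, Psmb10) catalytic subunits in each of 24 mice, with the mean and SD of 6 mice per group. Psmb5 lies from 102 to 119 CPM in the BATdKO libraries at 8°C, above the other 3 groups, and Psmb10 lies from 14.8 to 20.9 CPM in the Cre- libraries at 8°C.

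The 19S cap held no member called by edgeR in any comparison with all 24 libraries, and DESeq2 called 1, Psmd12, for cold in Cre-. Of the 17 cap genes, 1 had an unadjusted p under 0.05 by edgeR for cold in Cre-, 3 for cold in BATdKO and 1 for the genotype label at 8°C. Of all genes, 18.6%, 17.2% and 9.24% had such a p in these comparisons. Among the 6 ATPases, Psmc4 had the smallest p for cold in both genotypes, with medians of 51.7 and 60.1 CPM in Cre- (log2 fold change 0.19, SE 0.10, adjusted p = 0.337) and of 54.8 and 66 CPM in BATdKO (0.25, SE 0.10, adjusted p = 0.189). Psmc5 had the smallest p by genotype label at 8°C, with medians of 89.9 CPM in Cre- and 103 CPM in BATdKO (0.23, SE 0.10, adjusted p = 0.424), and it was called when the 12 libraries at 8°C were fitted alone. Its interaction was 0.20 (SE 0.14, adjusted p = 0.750). Psmc1 had a log2 fold change of 0.13 by genotype label at 30°C (SE 0.10, adjusted p = 0.714). All 6 ATPases had intervals within 1.5-fold in each of these comparisons between groups.

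Among the 11 non-ATPases, Psmd12, a lid subunit, had medians of 29.9 CPM at 30°C and 34.8 CPM at 8°C in Cre- (log2 fold change 0.24, SE 0.09, adjusted p = 0.123). Psmd3, which is also a lid subunit, had medians of 54.3 and 62.5 CPM in BATdKO (0.24, SE 0.11, adjusted p = 0.264). By genotype label, Psmd2, a base subunit, had the smallest p at 8°C (0.10, SE 0.06, adjusted p = 0.70) and Psmd11, a lid subunit, at 30°C (-0.17, SE 0.10, adjusted p = 0.603) and in the interaction (0.25, SE 0.14, adjusted p = 0.667). Psmd14, the deubiquitinase of the lid, was the member whose interval for cold in Cre- went past 1.5-fold. The summed level of the 17 cap genes was 1517 ± 66.9 CPM and 1489 ± 40.9 CPM in Cre- and 1564.5 ± 104 CPM and 1565 ± 49.8 CPM in BATdKO, at 30°C and 8°C.

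Of the activators and the inhibitor, Psme4, which encodes the nuclear activator PA200, rose in the cold in Cre-. Psme4 (chr11:30771726-30880361, plus strand) ranged from 44.3 to 58.1 CPM (median 53.8) at 30°C and from 56.2 to 82.8 CPM (median 66.5) at 8°C, a log2 fold change of 0.35 (SE 0.09, adjusted p = 0.0209). Mouse 3 at 8°C was the library that fell within the 30°C range. In BATdKO it ranged from 47.8 to 61.2 CPM (median 56.2) and from 59.9 to 81.0 CPM (median 63.5), with a log2 fold change of 0.23 (SE 0.09, adjusted p = 0.163). The interaction was -0.11 (SE 0.13, adjusted p = 0.872), so a difference between these responses was not shown. Psme2b, a near-identical copy of the interferon-induced activator gene Psme2, had a log2 fold change of -0.35 for cold in BATdKO (SE 0.13, adjusted p = 0.119) and 0.01 in Cre- (SE 0.13, adjusted p = 0.996), and its reads cannot be told apart from those of Psme2 with certainty. By genotype label at 8°C it had -0.14 (SE 0.13, adjusted p = 0.832), and its interaction was -0.36 (SE 0.18, adjusted p = 0.626). Psmf1, the inhibitor PI31, had a log2 fold change of -0.22 by genotype label at 30°C (SE 0.10, adjusted p = 0.420). Psme1, Psme2 and Psme3 were not called in any comparison by edgeR with all 24 libraries. Psme2 was called for cold in BATdKO without both libraries numbered 6 at 30°C.

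The 7 assembly chaperones had low levels, with means over all libraries of 3.94 CPM (Psmg1) to 18.6 CPM (Psmd9), and 0 were called in any comparison by edgeR, with 0 at an unadjusted p under 0.05 and 0 by DESeq2. Psmd5, a chaperone of the cap's base, had medians of 6.15 CPM at 30°C and 7.13 CPM at 8°C in BATdKO (log2 fold change 0.32, SE 0.16, adjusted p = 0.296). Psmd10, the base chaperone gankyrin, had -0.16 for cold in Cre- (SE 0.12, adjusted p = 0.520) and -0.25 by genotype label at 30°C (SE 0.12, adjusted p = 0.486), and its interaction was 0.30 (SE 0.17, adjusted p = 0.679). Psmd9 had 0.15 by genotype label at 8°C (SE 0.12, adjusted p = 0.803). The median log2 fold change of the class was -0.06 for cold in Cre- and 0.20 for cold in BATdKO, and 5 and 4 of its 7 intervals lay within 1.5-fold. By genotype label at 30°C the median was -0.25, with 6 of 7 negative, and the summed level was 69.8 ± 4.92 CPM in Cre- and 61.6 ± 4.32 CPM in BATdKO (SD, n = 6) at 30°C. The comparison of cold in BATdKO and that by label at 30°C share the BATdKO libraries at 30°C.

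**Figure D4:**
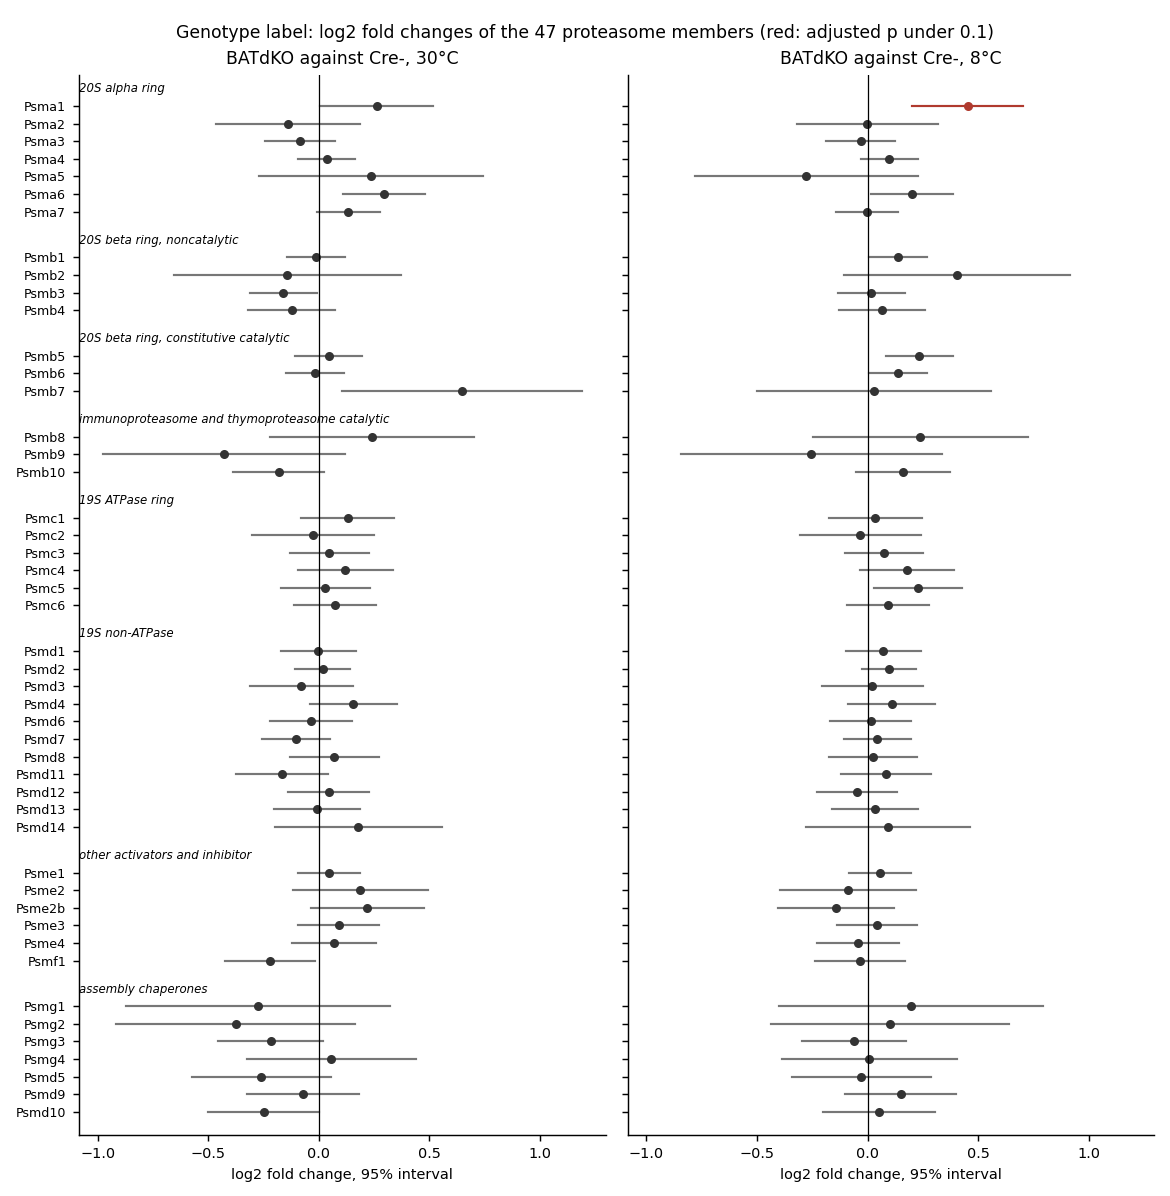
Log2 fold changes of BATdKO against Cre- with 95% intervals for the 47 members by class, at 30°C (left) and 8°C (right), with called members in red. Psma1 lies at 0.26 on the left and at 0.45 on the right, where it is the 1 called member.

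Nfe2l1 (chr11:96817414-96829968, minus strand) rose in the cold in Cre-. It ranged from 42.4 to 61.3 CPM (median 50.9) at 30°C and from 61.0 to 79.0 CPM (median 77.0) at 8°C in Cre-, a log2 fold change of 0.50 (SE 0.10, adjusted p = 0.00187). The groups touched, with Cre- mouse 2 at 8°C at 61.0 CPM and Cre- mouse 1 at 30°C at 61.3 CPM. In BATdKO it ranged from 60.3 to 75.3 CPM (median 62.2) at 30°C and from 57.0 to 88.4 CPM (median 61.5) at 8°C, a log2 fold change of -0.00 (SE 0.10, adjusted p = 1.000). At 30°C 5 of the 6 libraries labelled BATdKO were above the highest Cre- library, with a log2 fold change by label of 0.31 (SE 0.10, adjusted p = 0.240). The interaction of -0.50 (SE 0.14) did not pass the threshold with edgeR (adjusted p = 0.265) and passed it with DESeq2 (adjusted p = 0.0980). Of the 24 edgeR fits without 1 library it passed in 1, without BATdKO mouse 1 at 8°C (adjusted p = 0.0417). The highest adjusted p was 0.444, without Cre- mouse 1 at 8°C. None of the other 11 genes of the NFE2L1 list in the table, among them the protease gene Ddi2 and the deglycosylase gene Ngly1 that process NFE2L1, was called for cold in Cre- by edgeR or DESeq2, and 1 of these 11 had an unadjusted p under 0.05.

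Proteasome genes with other names were 12 in the table. Uchl5, a deubiquitinase of the 19S cap, ranged from 17.4 to 21.8 CPM (median 19.6) at 30°C and from 12.1 to 16.5 CPM (median 14.4) at 8°C in BATdKO. These ranges did not overlap, and Uchl5 fell by 0.45 on the log2 scale (SE 0.10, adjusted p = 0.00536). In Cre- it ranged from 9.57 to 18.5 CPM (median 17.7) and from 15.3 to 17.6 CPM (median 16.3), a log2 fold change of -0.06 (SE 0.10, adjusted p = 0.834), and the interaction was -0.39 (SE 0.14, adjusted p = 0.424). Adrm1, the ubiquitin receptor of the cap, had log2 fold changes of 0.02 for cold under both labels and 0.08 by label at both temperatures. Sem1, a small lid subunit, had 0.38 (SE 0.23, adjusted p = 0.406) for cold in Cre- and 0.20 (SE 0.23, adjusted p = 0.721) in BATdKO. Pomp, which assists maturation of the core, had -0.15 (SE 0.08, adjusted p = 0.333) and 0.09 (SE 0.08, adjusted p = 0.640).

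Of 11 ubiquitin and ubiquitin-activation genes 0 were called in any comparison by edgeR or DESeq2. At an unadjusted p under 0.05 by edgeR were 2 for cold in Cre-, both lower, 1 higher and 1 lower for cold in BATdKO, 1 lower by label at 30°C and 0 in the other comparisons. Of 12 interferon-signalling genes, 12 had negative log2 fold changes for cold in Cre- and 2 passed, where 9.15% of all genes were called. These were the guanylate-binding protein genes Gbp2 (-1.34, SE 0.41, adjusted p = 0.0466) and Gbp7 (-0.59, SE 0.15, adjusted p = 0.0129). Gbp2 had an adjusted p of 0.227 without Cre- mouse 1 at 30°C. For cold in BATdKO 7 of the 12 were negative and 5 positive, with 0 called by edgeR and 1 higher and 3 lower at an unadjusted p under 0.05. Of 11 MHC class I presentation genes, Tapbp, which loads peptides onto class I molecules, fell by 0.30 on the log2 scale for cold in BATdKO (SE 0.10, adjusted p = 0.0855), a call that was lost in 8 of the 24 fits without 1 library, with the highest adjusted p of 0.197 without BATdKO mouse 6 at 30°C.

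**Figure D5:**
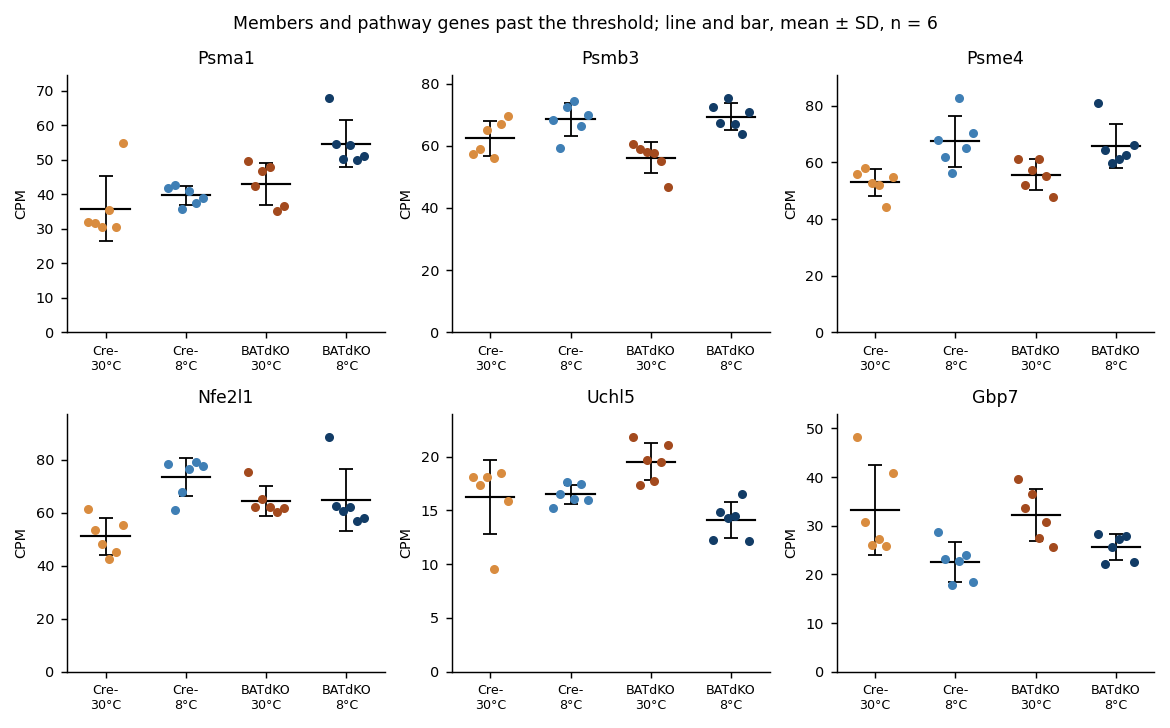
CPM of Psma1, Psmb3, Psme4, Nfe2l1, Uchl5 and Gbp7 in each of 24 mice, with the mean and SD of 6 mice per group. Nfe2l1 lies from 61.0 to 79.0 CPM in the Cre- libraries at 8°C against 42.4 to 61.3 CPM at 30°C, and Psma1 lies at 54.8 CPM in Cre- mouse 6 at 30°C.

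More members were called in 3 comparisons when both libraries numbered 6 at 30°C were left out. Cold then called 6 members in Cre- (Psma1, Psmb6, Psmb7, Psmb10, Psmd12 and Psme4), where 13.2% of all genes were called, and 5 in BATdKO (Psma1, Psmb3, Psmb5, Psmb8 and Psme2), where 6.13% were called. The genotype label then called 2 at 30°C (Psma1 and Psma6), where 4% of all genes were called, and Psma1 at 8°C, where 2.59% were called. The interaction again called 0 members by edgeR, with 5 at an unadjusted p under 0.05.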

How the data were processed

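Brown fat RNA of 24 mice was sequenced from 3′ tags (Lexogen QuantSeq FWD). The authors aligned reads to GRCm38, and the counts they deposited are whole numbers that had not been normalized, for 12615 genes named by Ensembl identifier. A symbol was found for 12608. Per the labels DESeq2 was used upstream, with no version given. The annotation release, strand setting and filter behind the table are not given in the sources used here.

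The analysis used edgeR 4.0.16 in R 4.3.3. TMM normalization, filterByExpr on the 4 groups (130 genes removed, 12485 tested) and a quasi-likelihood model with 1 mean per group were applied to all 24 libraries. Benjamini-Hochberg adjustment covered every gene tested, with the study's threshold of 0.1. CPM used TMM library sizes. SEs and 95% intervals came from the F statistic, and for genes that vary less than counting noise edgeR raises p beyond what its SE gives. DESeq2 1.42.0, RLE factors, other filters, robust dispersions, fits of only the groups compared and fits without each library were alternatives. The fits were tested on simulated counts. Each library is labelled as a separate mouse, and 0 pairs of libraries had identical counts.

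The members, gene lists and tests were chosen with earlier results of these data known. Values were printed for both sets of catalytic subunits, called members, the member with the smallest p of each class and comparison, Nfe2l1, Adrm1, Sem1, Pomp and called genes of the pathway lists, of which 1 is not reported here. Depth ranged from 699703 to 11527643 counts per library. Promoter windows came from RefSeq (GRCm38.p6) and gene positions from GENCODE on GRCm38, the build of the counts. By this annotation 4 members share exon sequence with a gene on their own strand and 11 with a gene on the other strand.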

Additional observations from a re-analysis of the deposited data

Results flagged for a closer look

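Single libraries far from the other 5 of their group were looked for by the gap to the nearest library in 10 genes (both sets of catalytic subunits, Psma1, Psmb3, Psme4 and Nfe2l1) and 4 groups. Of these 40 sets of 6 libraries 6 held such a library. The cutoff marks about 1 in 20 sets of independent, normally spread values. The genes share the same libraries and were chosen with results of these data known, so the 6 cannot be set against that rate. Psma1 was at 54.77 CPM in Cre- mouse 6 at 30°C, with the next library at 35.54 CPM. BATdKO mouse 1 at 8°C, the shallowest library of its group, was high in Psma1 at 67.96 CPM (next 54.57), in Psme4 at 81.03 CPM (next 66.32) and in Nfe2l1 at 88.44 CPM (next 62.53). Nfe2l1 was at 75.3 CPM in BATdKO mouse 1 at 30°C, with the next library at 64.99 CPM. Psmb5 was at 60.14 CPM in the shallow Cre- library of mouse 4 at 30°C, with the next library at 84.53 CPM.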

How the results depend on the processing

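Replicate numbers only name mice, and no paired analysis was possible because the labels pair no mice between groups. Without each library in turn, the members called ran from 2 to 4 for cold in Cre- (4 without mouse 1 or mouse 6 at 30°C, where 7.97% and 10.7% of all genes were called), from 2 to 4 for cold in BATdKO (4 without mouse 4 at 30°C, where 8.54% were), from 0 to 2 for the genotype label at 8°C and from 0 to 2 at 30°C (2 without Cre- mouse 6, where 2.95% were), and stayed at 0 for the interaction. With only the groups compared, 4 members were called for cold in BATdKO, where 7.44% of all genes were called, and 3 for the label at 8°C, where 4.01% were. For the label at 8°C DESeq2 called 2, where 2.29% of all genes were called, and a threshold of 0.05 called 0. Without both libraries numbered 6 at 30°C, chosen after seeing the data, the calls were 6 and 5 for cold in Cre- and BATdKO and 2 for the label at 30°C, where 13.2%, 6.13% and 4% of all genes were called. Without the shallow library as well, they were 7 and 5 for cold, 2 for the label at 8°C and 3 at 30°C, where 14.1%, 6.36%, 2.61% and 4.35% of all genes were called. The interaction of Psma1, 0.19 in all 24 libraries, ran from -0.00084 (without Cre- mouse 6 at 30°C) to 0.24 without each library in turn. It was -0.042 without both libraries numbered 6 at 30°C and -0.059 without the shallow library as well. The calls of Psmb10, Psme4, Psmb3, Psmb5, Uchl5, Gbp7 and of Nfe2l1 for cold in Cre- kept their side of the threshold in all 24 fits without 1 library and in the 6 other settings tried on all or some of the groups. Depth limited Psma5, Psmb7, Psmb9 and the chaperones, which had under 100 counts in many libraries. The cause of these changes was not tested.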

Other observations

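Skeletal muscle markers varied widely between libraries. The summed level of 14 markers ran from 4.10 to 8891 CPM in Cre- at 30°C, from 4.22 to 1601 CPM in Cre- at 8°C, from 21.4 to 671 CPM in BATdKO at 30°C and from 2.93 to 160.1 CPM in BATdKO at 8°C, while the summed proteasome level stayed between 2743 and 3043 CPM.

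Of 7 endothelial markers, 3 (Pecam1, Kdr and Emcn) were called higher for cold in Cre-, where 9.15% of all genes were called. For cold in BATdKO 2 (Kdr and Emcn) were called higher, where 7.07% of all genes were called, and 0 were called lower under either label. The list was mixed, with 4 positive and 3 negative log2 fold changes in Cre- (median 0.44) and 5 and 2 in BATdKO (median 0.03), where Cldn5 had -0.72 (SE 0.28, adjusted p = 0.171, edgeR). The summed levels overlapped, with 164 to 198 CPM at 30°C and 197 to 259 CPM at 8°C in Cre- and with 172 to 216 CPM and 197 to 253 CPM in BATdKO. Of 10 brown adipocyte markers 4 were called higher and 1, the adiponectin gene Adipoq, lower in the cold under each label. Of 7 markers of progenitors and stroma 3 were called lower for cold in BATdKO and 0 in Cre- (edgeR, with 2 at an unadjusted p under 0.05 and 0 by DESeq2). The shares of all genes called, 9.15% in Cre- and 7.07% in BATdKO, apply to these lists too.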
